A study of Mus musculus with 8 samples.

Results

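The transcripts described here encode pyruvate dehydrogenase, the kinases that switch it off, and enzymes of the tricarboxylic acid (TCA) cycle. The set was chosen by name, with earlier results of these data known. It has 9 genes, Pdha1, Pdk1, Pdk2, Pdk4, Cs, Idh3a, Ogdh, Fh1 and Mdh2, of the 21049 gene symbols measured. They were compared between 4 samples from mice given alcohol (replicates 1 to 4) and 4 control samples from mice given saline (replicates 1 to 4). All 8 samples are labelled wild type, liver and hepatocyte, and the design text gives the strain as C57BL/6. They carry 1 batch label in common. A cell line, AML12, which is derived from mouse hepatocytes, is named as well for every sample. Alcohol dose, duration of feeding, age and sex were not given in the sources used here.

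Pyruvate dehydrogenase is a mitochondrial complex that turns pyruvate, the end product of glycolysis, into acetyl-CoA and so commits sugar carbon to oxidation or to fat synthesis. Pyruvate dehydrogenase kinases phosphorylate its E1 alpha subunit and switch the complex off, and dedicated phosphatases switch it back on. The TCA cycle then oxidizes the acetyl unit, starting at citrate synthase and ending at malate dehydrogenase. In liver, PDK4 is known as the kinase that rises on fasting and in insulin resistance, and ethanol oxidation itself delivers acetate and NADH, which bear on both the complex and the cycle.

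The kinase transcripts moved in opposite directions with alcohol: Pdk4 and Pdk1 rose and Pdk2 fell. Among the cycle enzymes citrate synthase (Cs) rose. Malate dehydrogenase (Mdh2) was higher by a small margin, a call lost when most single samples were left out. Fumarase (Fh1) fell, and Idh3a and Ogdh did not pass the test. Pdha1, the subunit that the kinases act on, did not pass either. In all, 4 of the 9 genes were higher and 2 were lower by limma at an adjusted p under 0.05 on log2(FPKM + 1). FPKM are fragments scaled by gene length and by library total. Over all 9228 genes tested, 44.2% were higher and 13% lower, so the number of rises in this set was near that of the table at large. For 4 of the 9 genes every alcohol sample lay above every control, against 39.5% of all tested genes, and for 1 every alcohol sample lay below, against 10.7%. In either direction that is 5 of the 9 genes, against 50.2%. The log2 changes of all tested genes had a median of 0.24, and those of the 9 genes a median of 0.13.

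Depth and sample quality bear on these values as follows. Library totals were 37132631 to 38407511 reads in the alcohol samples and 33872595 to 34789814 reads in the controls, recovered from the steps in the deposited values. Alcohol replicates 2 and 4 were more alike than any other pair of samples, with a chi-square per gene of 10.1 between their reads. The other pairs within the alcohol group had 118 to 205, and pairs within the control group 56.6 to 234. Nothing in the labels says that the samples came from separate animals, so each p-value is set against the spread among these samples, which may be technical. Hepatocyte markers were abundant in both groups, the 5 of them (Alb, Apob, Ttr, Cps1 and Tat) summing to 41709 to 51737 FPKM with alcohol and 41767 to 45698 FPKM in controls. Of these 5, Tat and Cps1 were higher and Ttr lower. Transcripts of sinusoidal endothelial, stellate and Kupffer cells were present too, in all 8 samples. The 5 Kupffer markers (Clec4f, Cd5l, Vsig4, Adgre1 and Marco) summed to 19.8 to 38.8 FPKM with alcohol and 15.8 to 61.6 FPKM in controls. Of these 5, 3 were tested and none passed. The 4 endothelial markers (Clec4g, Stab2, Oit3 and Lyve1) summed to 50.4 to 58.1 FPKM with alcohol and 10.8 to 16.6 FPKM in controls, and all 4 were higher. Clec4g made up most of these sums, and the log2 changes ran from 0.48 (Stab2) to 2.94 (Lyve1). With a control mean of 0.478 FPKM, Lyve1 reached the mean of 1 FPKM needed for testing only through the alcohol samples. The 4 stellate markers (Reln, Lrat, Dcn and Col1a1) summed to 95.9 to 134 FPKM with alcohol and 34.7 to 65.1 FPKM in controls, and 3 of them were higher. Their part in the results below was not tested. In bulk RNA, a change in the number of cells of a type and a change in RNA per cell cannot be told apart.

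Pdk4 showed the largest change of the set. PDK4 is a kinase of the pyruvate dehydrogenase complex whose transcript is known to respond to fasting, glucocorticoids and fatty acids. It stood at 3.07, 5.46, 2.96 and 6.08 FPKM in alcohol replicates 1 to 4, against 0.275, 0.489, 0.593 and 0.239 FPKM in control replicates 1 to 4. Every alcohol sample lay above every control, and within the alcohol group replicates 2 and 4 lay well above replicates 1 and 3. These values rest on 393 to 780 reads per alcohol library and 28 to 71 reads per control library. The counting error of 1 library was thus 3.58% to 5.04% of the value with alcohol and 11.9% to 18.9% in controls. Means were 4.39 ± 1.61 FPKM with alcohol and 0.399 ± 0.170 FPKM in controls (SD, n = 4 each), a ratio of means of 11.0. The log2 change was 1.91 ± 0.19 (SE; limma adjusted p = 2.61e-05), and 99.0% of tested genes had a smaller change. The added constant of 1 FPKM holds this value down: with a constant of 0.1 the log2 change was 3.16, and with limma-voom on recovered reads it was 3.47. Of the 4 stellate markers, Dcn, Lrat and Col1a1 were also higher in alcohol replicates 2 and 4 than in replicates 1 and 3. Reln was not, at 3.95 to 4.21 FPKM over the alcohol samples, and Col1a1 did not pass the test between the groups (log2 change -0.26). Of the 5 hepatocyte markers, Alb, Apob, Cps1 and Tat were lower in alcohol replicates 2 and 4 than in replicates 1 and 3. Ttr was higher in alcohol replicates 2 and 4. The part of the stellate and hepatocyte markers in the Pdk4 values was not tested. Pdk4 passed the expression minimum, a mean of 1 FPKM over the 8 samples, only through the alcohol samples.

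**Figure D1:**
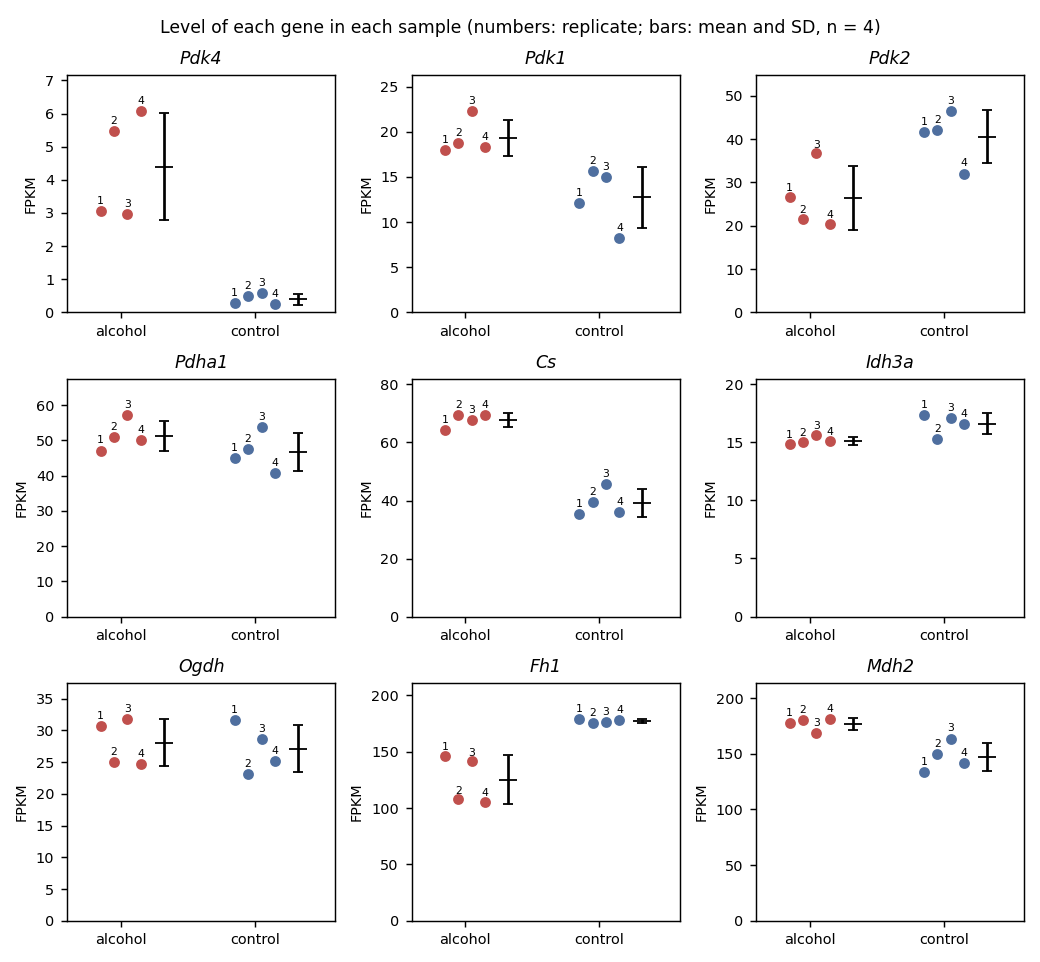
FPKM of each of the 9 genes (vertical axis, from 0) in every alcohol and control sample, with points numbered by replicate and the mean and SD drawn beside each group of 4. Pdk4 lies at 2.96 to 6.08 FPKM with alcohol and 0.239 to 0.593 FPKM in controls, while the groups overlap for Pdha1, Pdk2, Idh3a and Ogdh.

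Pdk1 rose less, from a higher base. PDK1 phosphorylates the same subunit and is known as a target of the hypoxia-inducible factor. Its level was 17.9, 18.7, 22.3 and 18.3 FPKM in alcohol replicates 1 to 4, against 12.1, 15.6, 15.02 and 8.27 FPKM in control replicates 1 to 4. The groups did not overlap, and control replicate 4 was the lowest of all samples. The log2 change was 0.59 ± 0.17 (SE; limma adjusted p = 0.0131). Relative to the median of all genes the change was 0.35, and the call was lost with median-of-ratios scaling (log2 change 0.31, adjusted p = 0.147) and with quantile normalization (0.37, adjusted p = 0.0889). Over all the alternatives its adjusted p ran from 0.00415 to 0.147.

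Pdk2 fell. PDK2 is the most widely expressed of the family and is known to respond to the ratios of NADH to NAD+ and acetyl-CoA to CoA. It stood at 26.7, 21.6, 36.7 and 20.5 FPKM in alcohol replicates 1 to 4, against 41.7, 42.03, 46.5 and 32.1 FPKM in control replicates 1 to 4. The groups overlapped through alcohol replicate 3, which lay above control replicate 4. The log2 change was -0.63 ± 0.18 (SE; limma adjusted p = 0.0126), and 5.84% of tested genes had a more negative change. On the TPM scale, where every column is brought to the same sum, the log2 change was -0.49 and did not pass (adjusted p = 0.0556). Over all the alternatives its adjusted p ran from 0.00153 to 0.0556.

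The makeup of the kinase transcripts therefore differed while their sum did not separate the groups. FPKM are per length, so levels can be set against each other between genes as far as the lengths used are right. The deposited values of Pdk3 correspond to 5752 bases and those of Ogdh to 7669 bases, above the 2561 and 5456 exon bases annotated in GENCODE M21, so their levels relative to other genes depend on those lengths. Pdk2 made up 51.9 ± 6.62% of the summed FPKM of the 4 kinases with alcohol and 75.8 ± 2.89% in controls (SD, n = 4 each). Pdk1 made up 38.8 ± 2.42% with alcohol and 23.4 ± 2.74% in controls. Pdk4 made up 9.17 ± 4.23% with alcohol and 0.723 ± 0.209% in controls. The Pdk4 share was 6.43%, 11.9%, 4.78% and 13.6% in alcohol replicates 1 to 4, and 0.508% to 0.953% over the controls. For each of Pdk1, Pdk2 and Pdk4 the shares of the groups did not overlap, and no test was made on these shares. Pdk3, the remaining kinase, had 7 to 10 reads per alcohol library and 4 to 6 reads per control library. The 4 kinases summed to 44.8 to 62.03 FPKM with alcohol and 40.6 to 62.2 FPKM in controls.

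**Figure D2:**
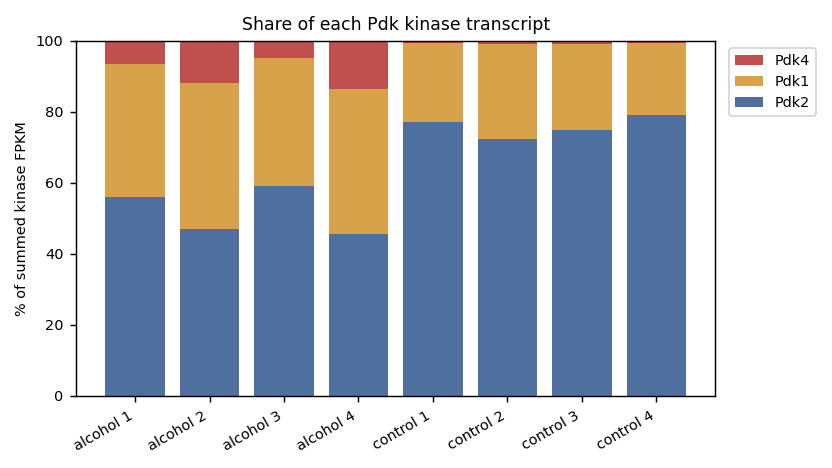
Share of Pdk2 (bottom), Pdk1 (middle) and Pdk4 (top) in the summed FPKM of the pyruvate dehydrogenase kinases, in percent, for each alcohol and control sample. Pdk2 takes 45.6% to 59.2% in the alcohol samples and 72.3% to 79.0% in the controls, and Pdk4 is widest in alcohol replicates 2 and 4.

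Because the kinases moved in opposite directions, their promoter windows are printed to show how they differ in sequence. Each window runs from 250 bases before to 50 bases after a start site of the gene in RefSeq on GRCm38.p6, and 8 of the 9 genes had one. The Pdk4 window is chr6:5496229-5496528 (minus strand), the Pdk1 window chr2:71872974-71873273 (plus strand) and the Pdk2 window chr11:95041322-95041621 (minus strand). Pdk1 and Pdk2 each have a further window that is not printed, and the one of Pdk1 held 2 matches to the glucocorticoid receptor half-site described next, beginning at bases 98 and 113, and the one of Pdk2 none to any motif. Capitals mark matches, on either strand, to any of 7 short motifs. These were the CCAAT box (CCAAT), the GC box (GGGCGG), the TATA box (TATAAA), the FOXO core (GTAAACA), the nuclear receptor half-site (AGGTCA), the glucocorticoid receptor half-site (AGAACA) and the hypoxia response core (ACGTG).
Pdk4: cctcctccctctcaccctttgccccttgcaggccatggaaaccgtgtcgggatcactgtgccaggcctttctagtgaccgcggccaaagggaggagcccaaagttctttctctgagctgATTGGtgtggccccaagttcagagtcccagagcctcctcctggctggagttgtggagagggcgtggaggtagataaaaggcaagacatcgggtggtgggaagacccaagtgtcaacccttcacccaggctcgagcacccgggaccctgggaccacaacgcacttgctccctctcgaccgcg
Pdk1: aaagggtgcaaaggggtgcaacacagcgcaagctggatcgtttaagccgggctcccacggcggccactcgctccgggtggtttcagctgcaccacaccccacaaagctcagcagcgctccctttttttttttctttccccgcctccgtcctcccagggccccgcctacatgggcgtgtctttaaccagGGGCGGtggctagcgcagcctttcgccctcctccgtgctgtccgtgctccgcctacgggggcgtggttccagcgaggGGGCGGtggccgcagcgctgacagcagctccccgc
Pdk2: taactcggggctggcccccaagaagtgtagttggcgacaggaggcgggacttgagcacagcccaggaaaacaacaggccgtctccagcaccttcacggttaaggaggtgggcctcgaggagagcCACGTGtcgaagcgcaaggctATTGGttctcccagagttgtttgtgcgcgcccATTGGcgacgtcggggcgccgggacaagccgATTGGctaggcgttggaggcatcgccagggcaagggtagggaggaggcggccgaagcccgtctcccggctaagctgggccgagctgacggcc
The Pdk4 window held 1 CCAAT match, beginning at base 120 of the window on the minus strand of the gene, and no match to the other 6 motifs as written. The hypoxia response core was searched as ACGTG alone. The form GCGTG was neither searched nor marked, and it occurs in the printed Pdk4 and Pdk1 windows. The Pdk1 window held 2 GC boxes, beginning at bases 189 and 266. The Pdk2 window held 3 CCAAT matches, at bases 146, 178 and 209, and a palindrome that reads as the hypoxia response core on both strands, at bases 125 and 126, so those matches overlap. Of the 32851 windows of the same length, 37.4% held at least 1 CCAAT box, 35.7% a GC box and 19.6% a hypoxia response core. A single match to any of these was thus not rare. The share of windows with several matches, or with the palindrome, was not counted. The FOXO core was present in 3.65%, the nuclear receptor half-site in 16.3%, the glucocorticoid receptor half-site in 19.0% and the TATA box in 13.6%. The GC content was 60.7% for Pdk4, 66.0% for Pdk1 and 64.7% for Pdk2, against a median of 52.7% over all windows. The Pdk4 window held 12 CG pairs and the other 2 windows 25 each, against a median of 7. A match is a description of the letters, and a motif absent here may lie outside the window.

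Pdha1 encodes the E1 alpha subunit, which carries the sites that the kinases phosphorylate. Its level was 47.1, 50.97, 57.2 and 50.03 FPKM in alcohol replicates 1 to 4, against 45.1, 47.5, 53.8 and 40.8 FPKM in control replicates 1 to 4. The groups overlapped over most of their range, and the log2 change of 0.13 ± 0.11 (SE) did not pass (limma adjusted p = 0.322). Exons of Pdha1 overlap those of Map3k15 on the other strand in GENCODE M21. Strand use was not given in the sources used here, so a part of its reads is uncertain, but Map3k15 stayed at or below 0.717 FPKM in all samples. Pdha2, the testis copy of the gene, was not analysed here.

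Citrate synthase (Cs), which joins acetyl-CoA to oxaloacetate in the entry step of the cycle, rose. It stood at 64.3, 69.5, 67.6 and 69.4 FPKM in alcohol replicates 1 to 4, against 35.4, 39.6, 45.7 and 36.1 FPKM in control replicates 1 to 4. The lowest alcohol sample lay well above the highest control. Means were 67.7 ± 2.41 FPKM with alcohol and 39.2 ± 4.70 FPKM in controls (SD, n = 4 each), and the log2 change of 0.78 ± 0.11 (SE) had a limma adjusted p of 0.000161. It passed under each of the 17 alternatives tried, with adjusted p from 4.45e-05 to 0.00585 and the smallest log2 change, 0.48, with median-of-ratios scaling. Csl, a gene of the same family, had at most 1 read in any library.

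Idh3a and Ogdh, which lie at the regulated oxidative steps, showed no difference past the threshold. Idh3a encodes the catalytic subunit of the NAD-dependent isocitrate dehydrogenase and stood at 14.8, 15.01, 15.6 and 15.1 FPKM in alcohol replicates 1 to 4, against 17.3, 15.3, 17.1 and 16.6 FPKM in control replicates 1 to 4. Alcohol samples were lower on the whole but overlapped control replicate 2, and the log2 change of -0.12 ± 0.09 (SE) did not pass (limma adjusted p = 0.242). With median-of-ratios scaling it did pass, as lower (log2 change -0.41, adjusted p = 0.00278) and likewise with quantile normalization (-0.34, adjusted p = 0.0069), while on the TPM scale its log2 change was 0.015. Over all the alternatives its adjusted p ran from 0.00278 to 0.911. Ogdh, the E1 component of the 2-oxoglutarate dehydrogenase complex, stood at 30.6, 24.996, 31.7 and 24.6 FPKM in alcohol replicates 1 to 4, against 31.6, 23.2, 28.6 and 25.1 FPKM in control replicates 1 to 4. The groups covered the same range, and the log2 change was 0.05 ± 0.13 (SE; limma adjusted p = 0.775). Its sign turned negative under 4 of the alternatives, so no direction can be given.

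Fumarase (Fh1), which hydrates fumarate to malate, fell. It stood at 146, 108, 141 and 105 FPKM in alcohol replicates 1 to 4, against 179, 176, 176 and 178 FPKM in control replicates 1 to 4. The controls were nearly equal, with an SD of 0.864% of their mean, while the alcohol samples formed a higher pair (replicates 1 and 3) and a lower pair (replicates 2 and 4). The log2 change was -0.51 ± 0.13 (SE; limma adjusted p = 0.00632), and it passed under each of the 17 alternatives (adjusted p 0.000723 to 0.0489). The same pairs of alcohol replicates stood apart in Ogdh, with replicates 2 and 4 lower, and in Pdk4, with replicates 2 and 4 higher. Replicates 2 and 4 were the most alike of all pairs over the whole table, so such a split need not be particular to these genes.

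Mdh2, the mitochondrial malate dehydrogenase that regenerates oxaloacetate, was higher by a small margin. It stood at 177, 180.1, 169 and 181 FPKM in alcohol replicates 1 to 4, against 134, 149, 164 and 142 FPKM in control replicates 1 to 4. The groups did not overlap, but alcohol replicate 3 and control replicate 3 lay close together. The log2 change of 0.27 ± 0.10 (SE) only just passed (limma adjusted p = 0.045) and lay 0.023 above the median of all genes. It did not pass when any of 7 of the 8 samples was left out (adjusted p up to 0.103), and with median-of-ratios scaling it was -0.03 (adjusted p = 0.82). Without control replicate 3 it still passed (adjusted p = 0.0395).

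The order of levels, which depends on the gene lengths used, changed between the groups. The deposited values correspond to 1282 bases for Mdh2, 1632 for Fh1 and 2979 for Cs. GENCODE M21 annotates 3562, 3392 and 5779 exon bases for these genes. With alcohol Mdh2 was the most abundant of the 9 at 177 ± 5.64 FPKM, ahead of Fh1 at 125 ± 21.7 FPKM (SD, n = 4 each). In controls Fh1 led at 177 ± 1.53 FPKM, ahead of Mdh2 at 147 ± 12.8 FPKM, and the ranges of the pair did not overlap in either group. Cs ranked 3 with alcohol and 5 in controls, where its range overlapped those of Pdk2 and Pdha1. With alcohol the ranges of Ogdh and Pdk2 overlapped, as did those of Pdk2 and Pdk1. Pdk4 ranked last in both groups.

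The rest of the pathway was read from a list of 32 further genes, also chosen with earlier results known. Of the 32, 28 passed the expression minimum. Of these, 5 rose and 6 fell, and 17 did not pass, against 44.2% higher and 13% lower over all genes. Their median log2 change was -0.08, against 0.24 over all genes, and 5 of the 28 lay above that median. With median-of-ratios scaling 2 of the 28 were higher and 15 lower.

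Within the pyruvate dehydrogenase complex the subunits did not move together. Pdhb, the E1 beta subunit that pairs with Pdha1, rose to 165, 191, 164 and 199 FPKM in alcohol replicates 1 to 4, against 82.6, 87.7, 86.3 and 83.1 FPKM in control replicates 1 to 4. Its log2 change was 1.07 ± 0.10 (SE; limma adjusted p = 2.19e-05). The ratio of Pdhb to Pdha1 FPKM was thus 2.87 to 3.99 with alcohol and 1.60 to 2.04 in controls. A near-identical copy of Pdhb, Gm6123, shares 97.03% identity over 1079 bases, so its reads are uncertain. Pdhx, the E3-binding protein, fell to 5.57 ± 0.94 FPKM with alcohol, against 9.01 ± 1.21 FPKM in controls (log2 change -0.61, limma adjusted p = 0.00217). Dlat (E2) and Dld (E3) did not pass, with log2 changes of 0.23 and -0.06.

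The phosphatases and their regulator also split. Pdp2, the catalytic phosphatase known as the insulin-responsive form of liver and fat, fell to 1.50, 1.69, 3.14 and 1.48 FPKM in alcohol replicates 1 to 4, against 6.19, 4.31, 4.19 and 4.36 FPKM in control replicates 1 to 4. The groups did not overlap, and the log2 change was -0.99 ± 0.17 (SE; limma adjusted p = 0.000834). Pdp1, the calcium-stimulated form, was below the minimum at 0.283 ± 0.046 FPKM with alcohol and 0.139 ± 0.063 FPKM in controls. The summed FPKM of the kinases was 18.01 to 26.5 times that of Pdp1 and Pdp2 with alcohol, and 8.51 to 14.5 times in controls. Pdpr, the regulatory subunit, was higher (log2 change 0.36, limma adjusted p = 0.0399), a call lost under 8 of the 17 alternatives. Mpc1, a subunit of the mitochondrial pyruvate carrier, was higher (0.45, limma adjusted p = 0.0131), whereas its partner Mpc2 did not pass (-0.30, adjusted p = 0.13). The Mpc1 call was lost with median-of-ratios scaling (0.15), and its reads are uncertain because of the near-identical Mpc1-ps and an overlapping antisense gene. Pcx, the pyruvate carboxylase that feeds oxaloacetate, did not pass (0.10, adjusted p = 0.577). Of the genes that attach lipoic acid to these complexes Lias rose (0.38, limma adjusted p = 0.00455), though not with median-of-ratios scaling or quantile normalization, and Lipt1 and Lipt2 did not pass.

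Of the 13 tested cycle enzymes outside the 9 genes, 1 rose and 2 fell, against 44.2% higher and 13% lower over all genes. Their median log2 change was -0.18, against 0.24 over all genes. Idh2, the NADP-dependent mitochondrial isocitrate dehydrogenase, rose to 23.7 ± 0.53 FPKM with alcohol, against 14.0 ± 1.94 FPKM in controls (log2 change 0.73, limma adjusted p = 0.000322). Sucla2, the ATP-forming succinyl-CoA ligase subunit, was lower (-0.31, limma adjusted p = 0.0294), a call lost under 8 of the 17 alternatives. Mrps36, a subunit that holds the 2-oxoglutarate dehydrogenase complex together, was lower (-0.54, limma adjusted p = 0.016), although it has 4 near-identical copies and its reads are uncertain. The 4 subunits of succinate dehydrogenase, Sdha to Sdhd, had log2 changes of -0.28 to 0.11 and none passed, and Idh3b, Idh3g, Dlst, Suclg1 and Suclg2 did not pass either.

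The cytosolic counterparts of 2 mitochondrial enzymes fell while the mitochondrial forms were higher. Idh1, the cytosolic NADP-dependent isocitrate dehydrogenase, stood at 97.2, 97.97, 95.4 and 97.8 FPKM in alcohol replicates 1 to 4, against 152, 169, 169 and 149.5 FPKM in control replicates 1 to 4. Its log2 change was -0.71 ± 0.10 (SE; limma adjusted p = 0.000158). The deposited Idh2 values correspond to a gene length of 5556 bases, above the 2588 exon bases annotated in GENCODE M21, so its level relative to other genes depends on that length while its change does not. The ratio of Idh2 to Idh1 FPKM was 0.236 to 0.249 with alcohol and 0.0748 to 0.0941 in controls. Mdh1, the cytosolic malate dehydrogenase of the malate-aspartate shuttle, fell to 173 ± 21.1 FPKM with alcohol, against 263 ± 25.7 FPKM in controls (log2 change -0.61, limma adjusted p = 0.0019). The ratio of Mdh2 to Mdh1 FPKM was 0.837 to 1.20 with alcohol and 0.519 to 0.586 in controls. The higher call of Mdh2 is the fragile one given above, and its sign turned with median-of-ratios scaling, whereas the falls of Idh1 and Mdh1 and the rise of Idh2 passed under each of the 17 alternatives. No test was made on the ratios. Exons of Mdh1, Lias and Pdpr overlap a gene on the other strand over a short stretch, so a small part of their reads is uncertain. Aco1, the cytosolic aconitase, did not pass (-0.09, adjusted p = 0.578).

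**Figure D3:**
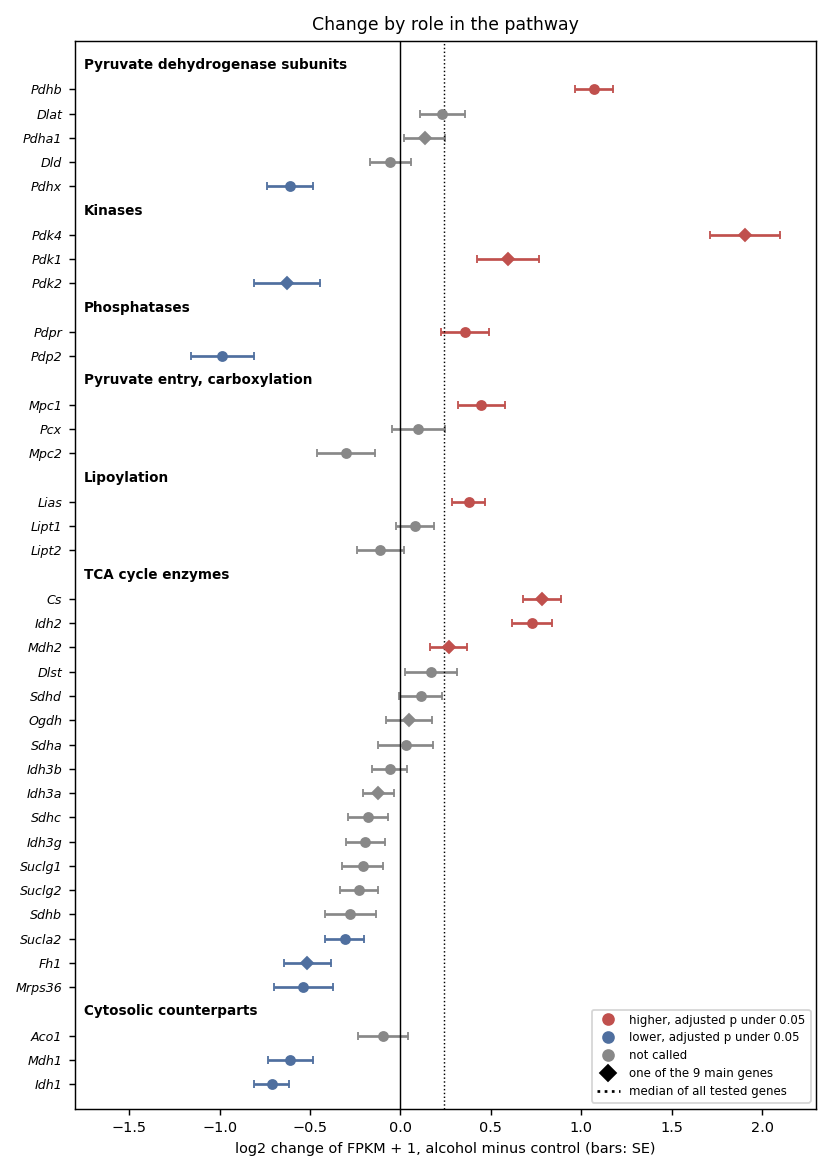
Log2 change of FPKM + 1, alcohol minus control (horizontal axis), for tested genes of the pathway by role, with bars of 1 SE, colour for the limma call at an adjusted p under 0.05 and diamonds for the 9 main genes. The dotted line is the median of all tested genes (0.24), and 9 genes lie to its right.

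Pdk4 was also set beside all other tested genes by the shape of its profile over the 8 samples. The genes with the highest Pearson correlation of log2(FPKM + 1) were Mapkapk5, a stress-activated protein kinase (r = 0.999), Pals2, a membrane scaffold protein (r = 0.994), and Nqo1, a quinone reductase (r = 0.994). The samples form 2 groups, so these values largely hold the difference between them, and no p is given. Nqo1 stood at 5.15, 7.91, 4.58 and 7.57 FPKM in alcohol replicates 1 to 4, against 1.20, 1.49, 1.35 and 0.801 FPKM in control replicates 1 to 4. Like Mapkapk5 and Pals2, Nqo1 had the same higher pair of alcohol replicates as Pdk4. That pair was also the most alike over the whole table. These genes were picked by their correlation with Pdk4 over the same samples, so the shared pair follows from that choice. Skeletal muscle and fat are known to express Pdk4 as well. The 4 muscle markers (Acta1, Ckm, Myh4 and Mylpf) summed to 0.372 to 3.11 FPKM with alcohol and 0.647 to 4.29 FPKM in controls. The 3 fat markers (Adipoq, Plin1 and Lep) summed to 0 to 0.153 FPKM with alcohol and 0 to 0.942 FPKM in controls. In alcohol replicate 4, where Pdk4 was highest, Acta1 had 95 reads, Ckm 48 reads and Adipoq 7 reads, the highest counts of the alcohol group. Control replicate 1, with Pdk4 at 0.275 FPKM, had 100 reads of Acta1, 76 of Ckm and 25 of Adipoq. Control replicate 4, with Pdk4 at 0.239 FPKM, had 32 reads of Adipoq and 2 of Ckm. Acta1 was listed at 0 in control replicates 2, 3 and 4. In alcohol replicate 2, where Pdk4 was at 5.46 FPKM, Adipoq, Plin1, Lep, Acta1 and Myh4 were listed at 0, and Ckm and Mylpf had 2 and 13 reads. The part of these markers in the Pdk4 values was not tested.

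**Figure D4:**
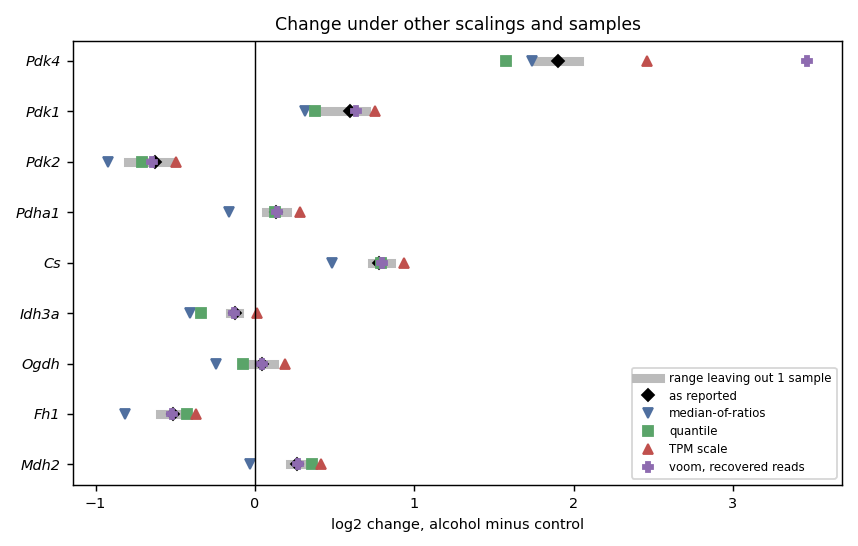
Log2 change, alcohol minus control, of each of the 9 genes as reported (diamond), under 3 other scalings and with limma-voom on recovered reads, with a grey bar for the range when 1 sample is left out. Pdk4, Pdk1 and Cs stay above 0 and Pdk2 and Fh1 below 0 throughout, while Pdha1, Idh3a, Ogdh and Mdh2 have settings on either side of 0.

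On GRCm38 (GENCODE M21), Pdk4 lies on chromosome 6 from 5483351 to 5496309 (minus strand), Pdk1 on chromosome 2 from 71873224 to 71903858 (plus strand) and Pdk2 on chromosome 11 from 95026258 to 95041354 (minus strand). Cs lies on chromosome 10 from 128337734 to 128362479 (plus strand), Fh1 on chromosome 1 from 175600374 to 175625635 (minus strand) and Mdh2 on chromosome 5 from 135778480 to 135790398 (plus strand). All are protein-coding, and none of these 6 shares exon sequence with a gene on either strand or has a near-identical copy of at least 200 bases at 95% identity among the annotated transcripts.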

How the data were processed

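RNA from 4 alcohol and 4 control samples was made into mRNA libraries with a SMARTER kit, per the labels' protocols. The authors deposited FPKM values, 1 column per sample. The submitters' processing notes name the builds GRCm38 and mm10, and the aligner, counter, annotation and strand use were not given in the sources used here. FPKM divides each library by its own total, so large changes in abundant transcripts move all other values. Whole reads were recovered for 21047 of 21049 genes (99.99%) by finding library totals and gene lengths that made every value whole to about 1e-05 of a read, taking for each gene the shortest length that did so. These reads give the depth and 1 alternative fit, and errors computed from them are counting errors alone.

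Alcohol was set against control by a fit of log2(FPKM + 1) in limma (version 3.58.1, R 4.3.3). It covered 9228 genes whose mean reached 1 FPKM, used trended variance moderation, and gave 2-sided p, adjusted by the Benjamini-Hochberg method with calls at 0.05. On simulated data of 8639 genes, 42.4% of genes changed by 0.5 (log2) and 100% of those changed by 1 were called. Of the unchanged genes 0.118% were called. The simulation had independent samples, the same dispersion for every gene and 8449 of the 8639 genes unchanged. In the real data 57.2% of genes were called, and alcohol replicates 2 and 4 were unusually alike. The simulated rates show how the fit behaves and may not hold for these data. Copies were sought with BLAST 2.17.0. Alternatives were the constant added, the filter, median-of-ratios, quantile and TPM scaling, untrended variances, limma-voom on recovered reads, the replicate number as a block, averaging alcohol replicates 2 and 4, and leaving out each sample. The genes and lists were chosen with earlier results of these data known. Named were the 9 genes, every called gene of the pathway list up to 4 per role and direction, and the 3 genes most like Pdk4. Others named as not passing were chosen after their values were seen. Of the pathway list, 1 gene enters the counts and is not reported here. Promoter windows come from RefSeq on GRCm38.p6.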

Additional observations from a re-analysis of the deposited data

Results flagged for a closer look

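In each group of 4 samples the highest and lowest values were checked for a gap to the nearest sample that, as a share of the group's range, exceeds Dixon's critical value for 4 samples. Of 48 groups checked (the 9 genes, the called pathway genes and the kinase shares) 3 stood out, and chance gives about 1 in 20. Pdp2 was 3.14 FPKM in alcohol replicate 3, far above the other alcohol samples, and 6.19 FPKM in control replicate 1, far above the other controls. Without alcohol replicate 3 the log2 change of Pdp2 was -1.16, and without control replicate 1 it was -0.87, and both passed. Mpc1 was 77.4 FPKM in alcohol replicate 4, above the other alcohol samples. Without that sample its log2 change was 0.39 and still passed.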

How the results depend on the processing

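Scaling moved the counts of calls most, while the size of the Pdk4 change moved most with the added constant (3.16 at 0.1) and with limma-voom (3.47). Of the genes called over the whole table, 77.2% were higher (4080 higher, 1203 lower), against 49.4% with median-of-ratios scaling (2386 and 2446), 49.1% with quantile normalization (2221 and 2307) and 85.7% on the TPM scale (4867 and 814). The first 2 centre the samples by construction. Median-of-ratios scaling left 2 of the 9 genes higher (Pdk4 and Cs) and, of the other pathway genes, 2 higher and 15 lower, and quantile normalization left 3 of those higher. On the TPM scale 1 of the 9 genes was lower (Fh1). Signs turned for Pdha1 (-0.16), Mdh2 (-0.034) and Ogdh (-0.25) with median-of-ratios scaling, for Ogdh with quantile normalization (-0.078) and when 1 sample was left out (range -0.024 to 0.120, negative without control replicate 2 or alcohol replicate 3, at -0.024 and -0.015), and for Idh3a on the TPM scale (0.015). The cause was not tested. Leaving out 1 sample gave 3 to 4 of the 9 genes higher and 2 lower, and 4 to 5 of the other pathway genes higher and 5 to 9 lower. Leaving out control replicate 1 gave the 9. Averaging alcohol replicates 2 and 4 left 3 and 2 of the 9 genes, without Mdh2. With the replicate number as a block 3 of the 9 genes were higher and 2 lower, since the adjusted p of Mdh2 was 0.0526, and the other pathway genes were 5 higher and 7 lower. The numbers were not taken as pairs: deviations of same-numbered samples correlated at 0.349, 0.216, 0.0706 and 0.28, and alcohol replicates 2 and 3 correlated best with another number. Depth limits Pdk3, Pdp1 and the controls of Pdk4.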

Other observations

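Some known regulators of the kinase genes were read as values, from a list of 8 of which 7 were tested. Ppara, the fatty acid receptor that is known to induce Pdk4, was lower, at 9.66 ± 2.86 FPKM with alcohol and 23.8 ± 4.195 FPKM in controls (SD, n = 4 each; log2 change -1.24, limma adjusted p = 0.000233). Nr3c1, the glucocorticoid receptor, was higher, at 9.52 ± 1.55 FPKM with alcohol and 5.51 ± 1.65 FPKM in controls (0.71, adjusted p = 0.0042). Hif1a, the oxygen-sensing factor, was also higher, at 9.24 ± 2.53 FPKM with alcohol and 5.10 ± 1.06 FPKM in controls (0.73, adjusted p = 0.0042). Foxo1, Rxra, Hnf4a and Esrra did not pass, and Ppargc1a was below the expression minimum. These are transcript levels only, and their relation to the kinase genes was not tested.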
